A study of Mus musculus with 6 samples.

Results

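Transcripts of 8 genes of neurotrophin and GDNF signalling were followed in cells sorted from mouse cortex after a stroke. The genes were chosen by name: the ligands Bdnf, Ntf3 and Gdnf, and the receptor genes Ntrk2, Ntrk3, Ngfr, Gfra1 and Ret. All 8 were among the 24419 genes of the deposited table. Male wild-type C57BL/6N mice underwent 60 min of middle cerebral artery occlusion and then received intravenous vehicle or 600 ng of 15-HETrE in 150 µL of phosphate-buffered saline at 24, 48 and 72 h. 15-HETrE is a lipid mediator, the 15-hydroxy product of dihomo-gamma-linolenic acid. On day 4 the peri-infarct cortex was dissociated, and cells with Thy1 but without ACSA2, CD31, CD45 and O4 on the surface were sorted as neurons. Both groups had the same ischemia, strain and sort, and no library of uninjured cortex was analysed here. There were 3 RNA-seq libraries per group.

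Neurotrophins are secreted growth factors that keep neurons alive and shape their synapses. BDNF acts through the receptor tyrosine kinase TrkB, encoded by Ntrk2, and NT-3 acts mainly through TrkC, encoded by Ntrk3. All neurotrophins and their uncleaved precursors also bind p75NTR, encoded by Ngfr, which can promote survival or cell death. GDNF binds a membrane-anchored co-receptor, GFRα1, encoded by Gfra1, and the complex activates the tyrosine kinase RET. In the adult cortex BDNF is made chiefly by excitatory neurons in response to activity, and astrocytes carry a truncated TrkB that lacks the kinase domain.

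Bdnf and Gdnf were the members whose libraries did not overlap between the groups, and they went in opposite directions. Bdnf was higher in every 15-HETrE library than in any vehicle library, and Gdnf was lower. Neither passed the test over all genes (adjusted p 0.454 and 0.46, limma), and 0 of the 7 members tested did, beside 0% of the 14523 genes tested in either direction. The upstream sequences of these 2 genes are shown because the same letters occur in a start of each. Those letters are the core of the cAMP response element, the site bound by CREB, which couples neuronal activity to transcription. RefSeq windows for GRCm38.p6 were found for 6 of the 8 members, with 14 start sites in all, 7 of them in Bdnf. The 250 bases before each start were searched on both strands for the core, TGACGT or its reverse complement ACGTCA. It was present in 1 of the 7 Bdnf windows and in 1 of the Gdnf windows, and the windows found for Ntf3, Ntrk2, Ngfr and Gfra1 did not hold it. Over all 32851 windows of this length, 6.47% held the core, and 1.55% held the full palindrome TGACGTCA, which contains it and which no member window held. The Bdnf window lies at chr2:109692186-109692435 (plus strand) and is known as the activity-responsive exon IV promoter, with the core ending 30 bases before the start. The Gdnf window lies at chr15:7809798-7810047 (plus strand), with the core ending 45 bases before the start. Capitals mark the core.
Bdnf: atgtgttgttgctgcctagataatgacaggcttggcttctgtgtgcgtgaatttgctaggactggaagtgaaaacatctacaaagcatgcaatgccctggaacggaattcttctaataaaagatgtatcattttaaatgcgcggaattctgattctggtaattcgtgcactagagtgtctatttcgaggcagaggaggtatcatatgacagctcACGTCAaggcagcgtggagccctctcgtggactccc
Gdnf: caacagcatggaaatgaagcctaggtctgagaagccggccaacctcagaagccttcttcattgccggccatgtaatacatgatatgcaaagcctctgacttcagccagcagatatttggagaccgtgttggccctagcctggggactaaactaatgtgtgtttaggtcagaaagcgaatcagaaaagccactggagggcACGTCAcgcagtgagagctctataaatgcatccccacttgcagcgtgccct
The counts are per gene, so which start site the reads came from is not known, and a match is a description of the letters, not of binding.

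The libraries held 5405245 to 22558400 reads assigned to genes, and values are CPM, library-size-normalized reads with a further scaling by the authors. Column names number vehicle 1, vehicle 2 and 15-HETrE 1, which share a first prefix. Of the others, 1 15-HETrE library carries no number ("unnumbered" below), and 1 library of each group is named "combined". Nothing in the labels ties each library to its own mouse, so p-values speak only to library-to-library spread, possibly of technical origin. Pan-neuronal markers were present in every library, with a mean level of 6.69 to 8.29, but oligodendrocyte markers, whose cells the O4 gate was meant to leave out, stood at 9.37 to 10.54 (mean of log2(CPM + 1) over each list). Fibroblast markers stood at 9.89 and 9.64 in vehicle 1 and 2, and at 3.99 in vehicle combined. Because these are bulk samples, fewer cells of a type and less RNA per cell cannot be told apart.

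Levels of the members spanned a wide range, and transcripts of the receptor genes Ntrk2 and Gfra1 were the most abundant. Per kilobase of annotated exon, Ntrk2 and Gfra1 had the highest means over the 6 libraries, 27.8 and 20.6 CPM per kb. Ntrk2 ranged from 13.7 to 56.5 and Gfra1 from 9.88 to 34.2, and Ntrk2 was the higher of the pair in 5 of 6 libraries, so their order was not the same throughout. Gfra1 stood above Gdnf, the next gene, in all 6 libraries with no overlap of their ranges. Gdnf (mean 2.54 CPM per kb), Ntrk3 (2.45), Bdnf (1.23), Ngfr (0.898), Ret (0.393) and Ntf3 (0.0573) followed, and each neighbouring pair among these overlapped in range. Ntrk2 exceeded Ntrk3 in all 6 libraries, with an 11.4-fold ratio of the means. Gfra1 exceeded Ret, the kinase it works with, in all 6 libraries, with a 52.4-fold ratio of the means. Exons of all annotated transcripts were joined for the length, so a gene with long alternative exons, such as Ntrk2 with 19292 bp or Ntrk3 with 30170 bp, has a lower value per kb than its main transcript alone would give.

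**Figure D1:**
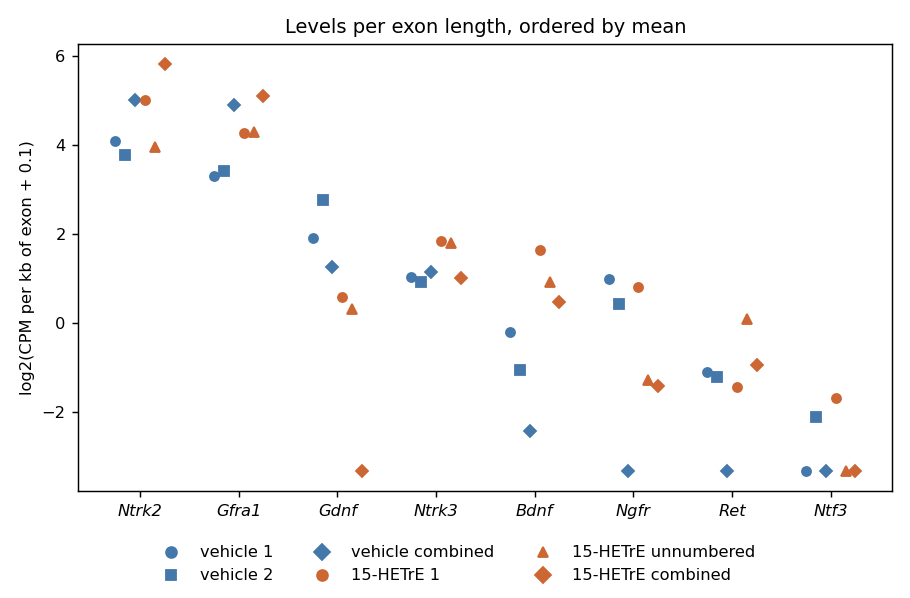
Level of each member per kb of joined exon in each of the 6 libraries, as log2(CPM per kb + 0.1) on the vertical axis, with genes ordered by their mean. Points are single libraries (blue vehicle, orange 15-HETrE); Ntrk2 and Gfra1 stand highest, and the lowest points of Gdnf, Ngfr, Ret and Ntf3 are libraries with 0 reads.

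Bdnf (ENSMUSG00000048482.14, chromosome 2, 109674700 to 109727007, plus strand, GRCm38) had 4.81, 2.38 and 0.54 CPM in vehicle 1, 2 and combined. In 15-HETrE 1, unnumbered and combined it had 18.8, 11.2 and 7.97 CPM. All 3 15-HETrE libraries lay above all 3 vehicle libraries, and vehicle combined was the lowest of the 6. The group values were 2.58 ± 2.14 CPM (vehicle) and 12.7 ± 5.58 CPM (15-HETrE) (SD, n = 3 per group). The log2 fold change was 2.06 on the log2(CPM + 1) scale, where a low gene shows too small a change (95% interval 0.53 to 3.58, unadjusted p 0.0132, adjusted p 0.454, limma). The values rest on 103, 53 and 3 reads in vehicle and on 414, 188 and 59 reads in 15-HETrE. The 3 reads of vehicle combined allow 0.111 to 1.58 CPM and the 59 reads of 15-HETrE combined 6.07 to 10.3 CPM (exact Poisson 95% intervals, counting error only). Among first-prefix libraries Bdnf differed by 2.16 on the log2 scale, and the combined pair gave 2.54. Bdnf shares 896 bp of exon with Gm45346, annotated on the other strand. Strand-aware counting is not stated in the labels or the table, so reads of this stretch cannot be told apart.

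Neuronal markers were also higher where Bdnf was higher. The mean level of the 10 pan-neuronal markers was 7.58, 6.69 and 6.92 in vehicle 1, 2 and combined and 8.29, 7.67 and 8.02 in 15-HETrE 1, unnumbered and combined, without overlap. The sum of their levels ran from 1994 to 3447 CPM in vehicle and from 3330 to 6337 CPM in 15-HETrE, and 0 of the 10 were at 0 reads in any library. The list differed by 1.16 among first-prefix libraries and by 1.10 in the combined pair, where Bdnf differed by 2.16 and 2.54 (log2 scale). Their part in the Bdnf difference was not tested. The 8 excitatory neuron markers, of the cells that chiefly make BDNF, had a median log2 fold change of 0.71. The median was 0.74 for the 9 inhibitory neuron markers and 1.06 for the 9 astrocyte markers, so the shift was not particular to excitatory neurons.

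Gdnf (ENSMUSG00000022144.4, chromosome 15, 7810846 to 7837575, plus strand) had 13.6, 24.5 and 8.45 CPM in vehicle 1, 2 and combined. In 15-HETrE 1 and unnumbered it had 5.14 and 4.24 CPM, and 15-HETrE combined held 0 reads, which allows up to 0.405 CPM (3 reads). Every vehicle library lay above every 15-HETrE library. The group values were 15.5 ± 8.21 CPM (vehicle) and 3.13 ± 2.75 CPM (15-HETrE) (SD, n = 3 per group), a log2 fold change of -2.26 (95% interval -4.03 to -0.48, unadjusted p 0.0176, adjusted p 0.46, limma). Without 15-HETrE combined, the library at 0, it was -1.42. The first-prefix libraries differed by -1.65 in Gdnf, and the combined pair, with 47 reads against 0, by -3.24 (log2 scale).

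Markers of mural cells were lower alongside Gdnf, and those of fibroblasts followed it in the first-prefix libraries but little in the combined pair. The 8 pericyte and smooth muscle markers had mean levels of 6.51, 6.98 and 6.30 in vehicle 1, 2 and combined and 4.77, 6.19 and 5.67 in 15-HETrE 1, unnumbered and combined. Those means did not overlap, 7 of the 8 were lower and 0 were at 0 reads in any library. Their summed level ran from 876 to 1245 CPM in vehicle and from 264 to 756 CPM in 15-HETrE. The 8 fibroblast markers, 0 of them at 0 reads in any library, summed to 1473 to 12651 CPM in vehicle and 1224 to 2178 CPM in 15-HETrE. Pdgfra, also in the oligodendrocyte precursor list, made up most of this sum in vehicle combined (1382 of 1473 CPM). The same held in 15-HETrE 1 (1035 of 1224 CPM) and 15-HETrE combined (1228 of 1280 CPM). The mean level of the fibroblast list was 9.89, 9.64 and 3.99 in vehicle 1, 2 and combined. In 15-HETrE 1, unnumbered and combined it was 5.14, 7.52 and 3.66. Within the combined pair, where Gdnf differed by -3.24, the fibroblast list differed by -0.33 and the pericyte list by -0.63. Within the first prefix, where Gdnf differed by -1.65, those lists differed by -4.62 and -1.97. The part of the pericyte markers in the Gdnf difference was not tested.

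Ntf3 (chromosome 6, 126101412 to 126166910, minus strand), which encodes NT-3, was close to undetected. It had 5 reads in vehicle 2 and 8 reads in 15-HETrE 1, or 0.225 and 0.364 CPM, and 0 reads in the other 4 libraries. It was the only member under the filter of a mean of 1 CPM, so it entered no test. The 0 reads allow up to 0.14 CPM in vehicle 1 and up to 0.54 CPM in vehicle combined (3 reads). No difference was detectable at this depth.

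**Figure D2:**
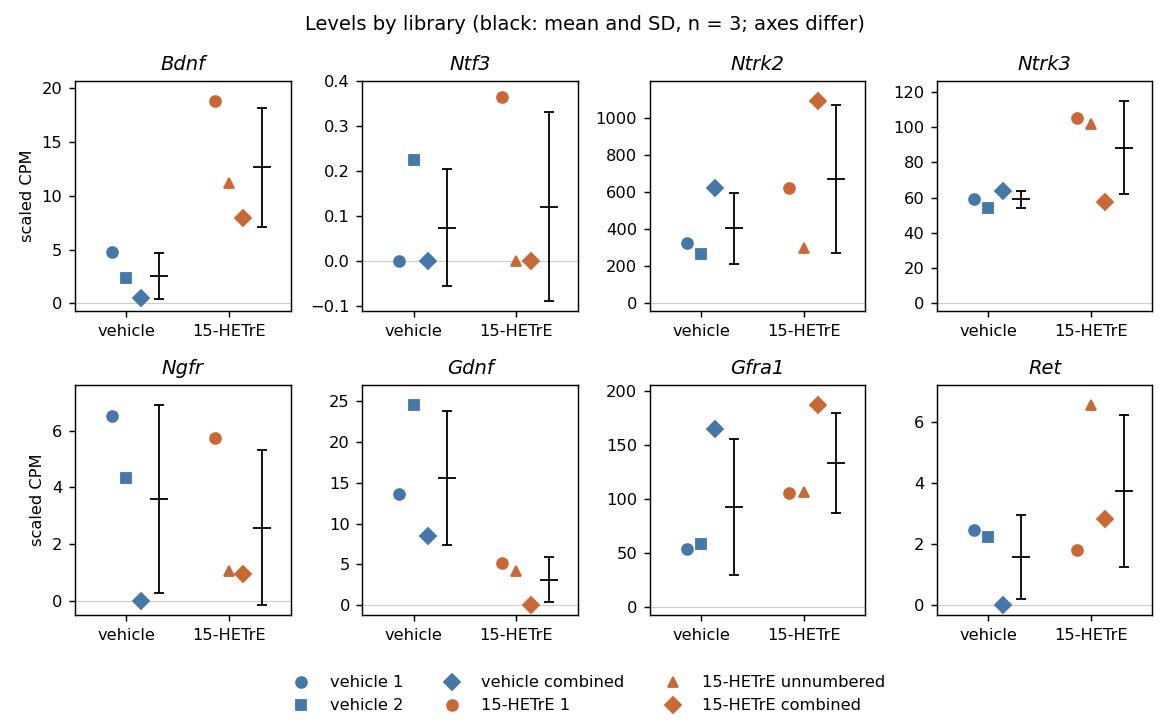
Scaled CPM (vertical axis, different in each panel) of the 8 members in the 3 vehicle and 3 15-HETrE libraries; coloured points are libraries and black marks the mean and SD of a group. Only Bdnf (higher) and Gdnf (lower) show no overlap between the groups; the Ntf3 panel rests on 13 reads in all.

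Of the neurotrophin receptors, Ntrk2 was the most abundant member and varied as much within groups as between them. Ntrk2 (chromosome 13, 58806569 to 59133970, plus strand) had 326, 265 and 621 CPM in vehicle 1, 2 and combined. In 15-HETrE 1, unnumbered and combined it had 620, 301 and 1090 CPM. The combined libraries were the highest of their groups, and 15-HETrE unnumbered lay under vehicle 1, so the groups overlapped. The log2 fold change was 0.64 (SE 0.46, 95% interval -0.39 to 1.67, adjusted p 0.692, limma), and without 15-HETrE combined it was 0.19. The astrocyte marker list was likewise highest in the combined libraries: 5.53, 4.92 and 7.93 in vehicle 1, 2 and combined and 6.34, 5.92 and 8.87 in the 15-HETrE libraries (mean log2 scale). Its 9 markers summed to 667 to 7737 CPM in vehicle and 1423 to 20863 CPM in 15-HETrE, with 0 of them at 0 reads in any library. Astrocytes were to be left out by the ACSA2 gate, and their part in the Ntrk2 level was not tested. Gene counts do not separate kinase-bearing from truncated TrkB, so these values are the sum of both forms.

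Ntrk3 (chromosome 7, 78175959 to 78738012, minus strand) was even across the vehicle libraries, with 59.1, 54.1 and 63.8 CPM. In 15-HETrE, library 1 and the unnumbered library stood above them at 105 and 102 CPM, while 15-HETrE combined had 57.8 CPM and lay among the vehicle libraries. The log2 fold change was 0.53 (SE 0.30, 95% interval -0.14 to 1.20, adjusted p 0.612, limma). It was 0.89 among first-prefix libraries and -0.14 in the combined pair, so the sign was not shared.

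Ngfr (chromosome 11, 95568818 to 95587735, minus strand), encoding p75NTR, was low and spread out. It had 6.5, 4.32 and 0 CPM in vehicle 1, 2 and combined and 5.74, 1.07 and 0.946 in 15-HETrE 1, unnumbered and combined. High and low libraries occurred in each group. The log2 fold change of -0.18 (95% interval -2.22 to 1.85, adjusted p 0.959, limma) had no stable sign: it was 0.38 without vehicle 1 and -1.07 without vehicle combined, which held 0 reads and allows up to 0.54 CPM.

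Among the GDNF receptors, Gfra1 (chromosome 19, 58235604 to 58455909, minus strand) had 54.1, 58.2 and 165 CPM in vehicle 1, 2 and combined. It had 106, 107 and 187 CPM in 15-HETrE 1, unnumbered and combined. Vehicle 1 and 2 were the lowest, and vehicle combined stood above 2 of the 3 15-HETrE libraries. The log2 fold change was 0.67 (SE 0.43, 95% interval -0.28 to 1.62, adjusted p 0.644, limma), with 1.18 when vehicle combined was left out, 0.39 without vehicle 1 and 0.40 without 15-HETrE combined. The first-prefix difference of Gfra1 was 0.90 and the combined pair gave 0.18. It shares 416 bp of exon with Gm16277 on the other strand.

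Ret (chromosome 6, 118151745 to 118197718, minus strand) was the lowest tested member per kb. It had 2.48, 2.25 and 0 CPM in vehicle 1, 2 and combined and 1.82, 6.56 and 2.84 CPM in 15-HETrE 1, unnumbered and combined. Library 1 of 15-HETrE lay under vehicle 1 and 2, and the unnumbered library was the highest. The log2 fold change was 0.95 (SE 0.77, 95% interval -0.76 to 2.67, adjusted p 0.716, limma). Without vehicle combined, which held 0 reads of Ret, it was 0.37. The first-prefix libraries differed by -0.25 in Ret and the combined pair by 1.94 (log2 scale), so the sign was not shared.

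Thus 1 of the 7 members tested had libraries that were higher without overlap, where 6.84% of all genes tested did, and 1 was lower without overlap, where 8.32% did. The same genes, Bdnf and Gdnf, had an unadjusted p under 0.05, as did 4.27% of all genes on the higher and 5.23% on the lower side (limma). With limma's library weights, an alternative that favours the libraries of the first prefix, 5 of the 7 members passed, and so did 16.7% of all genes. Over all genes tested the median log2 fold change was 0.0162.

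**Figure D3:**
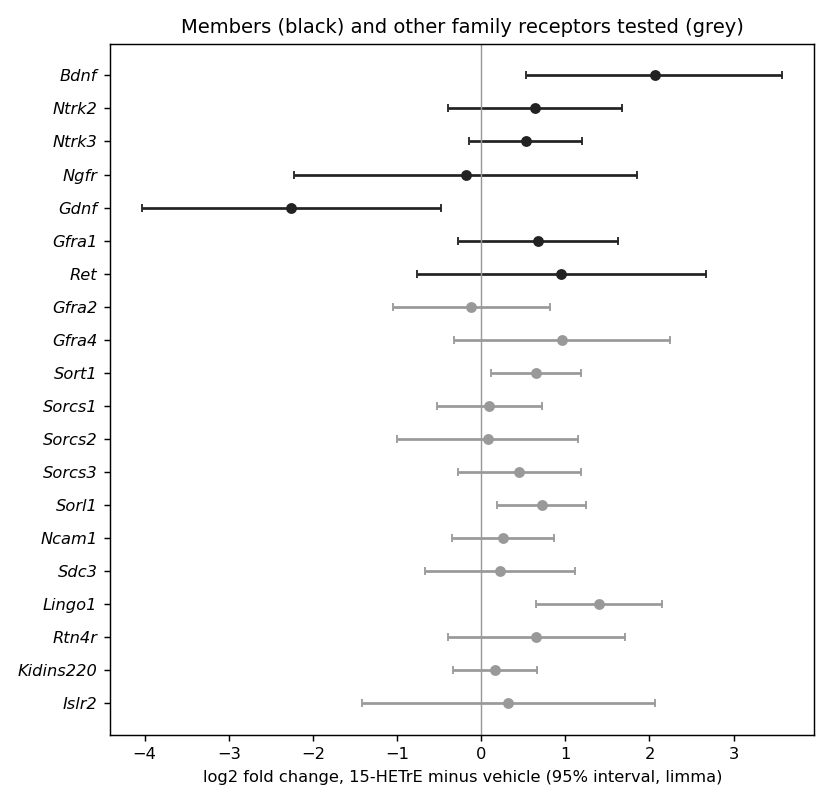
Log2 fold change of 15-HETrE minus vehicle (horizontal axis, log2(CPM + 1) scale) with its 95% interval from limma, for the 7 members tested (black) and the 13 other family receptor genes tested (grey). The intervals of Bdnf, Gdnf, Sort1, Sorl1 and Lingo1 leave out 0, and none of these genes passed with adjustment over all genes.

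The other ligands of the families that are described here were scarce. Ntf5, encoding the other TrkB ligand NT-4, had 14 and 21 reads in vehicle 1 and 2 and 0 in the other 4 libraries. Artn, Nrtn and Pspn, ligands of the GDNF family, had at most 25 reads in any library.

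Receptors and co-receptors of the families leaned higher in 15-HETrE libraries without passing the test. Of 16 listed genes, 13 were tested, 12 had a log2 fold change above 0, as did 51% of all genes tested, 0 were called in either direction and the median was 0.32. Lingo1, a signalling partner of p75NTR, had 120, 70.9 and 52 CPM in vehicle 1, 2 and combined and 273, 171 and 180 CPM in 15-HETrE 1, unnumbered and combined, with no overlap. Its log2 fold change was 1.40 (SE 0.34, adjusted p 0.366, limma), 1.55 among first-prefix libraries and 1.77 in the combined pair. The pan-neuronal list differed by 1.16 and 1.10 in the same comparisons, and its part in the Lingo1 difference was not tested.

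The sorting receptors Sort1 and Sorl1 also did not overlap. Sort1 encodes sortilin, which binds proneurotrophins together with p75NTR and routes BDNF in the cell. Its level was 280 ± 48.2 CPM under vehicle against 437 ± 39.3 CPM under 15-HETrE (SD, n = 3 per group), with an adjusted p of 0.465 (limma). Sorl1, a relative of sortilin, had 168 ± 35.1 and 272 ± 13.4 CPM, with an adjusted p of 0.454 (limma). The log2 fold changes were 0.65 and 0.72.

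Of the other sortilin relatives, Sorcs1, Sorcs2 and Sorcs3 gave 0.09, 0.08 and 0.45 on that scale, and their libraries overlapped. Rtn4r, the Nogo receptor that can join p75NTR, had 0.65, and Kidins220, a scaffold under Trk receptors, had 0.16. Ncam1 and Sdc3, which can bind GDNF without RET, had 0.26 and 0.22. Islr2, a partner of Trk and RET receptors, had 0.32 but ranged from 2.88 to 45.7 CPM within vehicle. It shares 181 bp of exon with its neighbour Islr on the same strand.

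The other GFRα co-receptors differed among themselves. Gfra2, the co-receptor of neurturin, stood at 67.3 ± 27.3 CPM under vehicle and 64 ± 31.8 CPM under 15-HETrE (SD, n = 3 per group), a log2 fold change of -0.12 (95% interval -1.05 to 0.82). Gfra4, the co-receptor of persephin, had 9.68 ± 5.32 and 18 ± 5.02 CPM, a log2 fold change of 0.96 with overlapping libraries. Gfra3 had 0 reads in all 6 libraries. Gfral had 35 reads in 15-HETrE unnumbered, 1 in 15-HETrE 1 and 0 elsewhere.

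Genes that act after the receptors, or before the ligands, were read from 6 further lists, and 0 of their members were called in either direction (limma). Their counts above 0 stand beside the same 51% over all genes tested, and their medians beside 0.0162. Trk adaptors and the kinase cascade after them had 45 genes tested, 26 above and 19 below 0, with a median of 0.14. Rap1b, a small GTPase that sustains ERK signalling after Trk receptors, had 144, 178 and 118 CPM under vehicle against 69.7, 69.2 and 81.6 CPM under 15-HETrE, without overlap. Its log2 fold change was -0.97 (adjusted p 0.394, limma). RET adaptors and feedback genes had 4 of 13 above 0 and a median of -0.22. In that list the 2 genes with the smallest p were Src, with 0.72, and Spry1, an inhibitor of RET signalling, with -0.44 (log2 fold changes), and both overlapped.

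Adaptors of p75NTR and its death cascade had 7 of 23 above 0 and a median of -0.08. Rhoa, a GTPase that p75NTR regulates, had 339 ± 81.8 CPM under vehicle and 222 ± 17.4 CPM under 15-HETrE without overlap (SD, n = 3 per group), with an adjusted p of 0.522 (limma). Proneurotrophin processing and secretion genes had 9 of 15 above 0 and a median of 0.30. Cadps2, which promotes BDNF release, had 67.7 ± 29.6 CPM under vehicle and 133 ± 35.9 CPM under 15-HETrE (SD, n = 3 per group) with overlap.

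Regulators of Bdnf transcription had 13 of 19 above 0 and a median of 0.16. Rest, a repressor of neuronal genes that include Bdnf, had 42.5, 45.6 and 31.1 CPM in vehicle 1, 2 and combined and 23.4, 15.7 and 6.89 CPM in 15-HETrE 1, unnumbered and combined. The groups did not overlap, and the log2 fold change was -1.45 (SE 0.47, adjusted p 0.439, limma). Crem and Nfatc4 were also lower without overlap, with log2 fold changes of -1.15 and -0.79. Of the 19 genes, 3 were thus lower without overlap, where 8.32% of all genes tested were. Higher without overlap were 0 of the list, where 6.84% of all genes tested were. The part of these regulators in the Bdnf difference was not tested. Camk4, a kinase that activates CREB, had 159 ± 85.3 and 338 ± 166 CPM (SD, n = 3 per group) with overlap. Activity genes that BDNF is known to raise had 11 of 19 above 0 and a median of 0.10. Of these, Nptx2, a secreted pentraxin of excitatory synapses, lay at 11.4, 13 and 7.73 CPM under vehicle and at 30, 18 and 28.2 CPM under 15-HETrE, without overlap (adjusted p 0.48, limma). Homer1, a postsynaptic scaffold, had 116 ± 17.4 and 204 ± 39.8 CPM (SD, n = 3 per group), also without overlap.

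**Figure D4:**
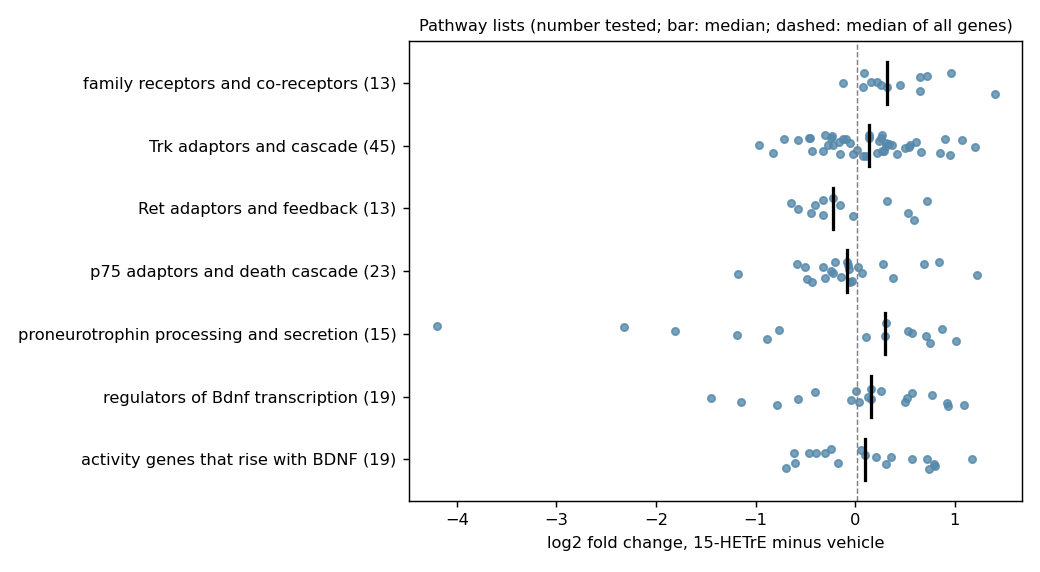
Log2 fold change of 15-HETrE minus vehicle (horizontal axis) for each tested gene of 7 pathway lists, with the number tested in brackets, the median as a black bar and the median over all genes as a dashed line. List medians lie between -0.22 and 0.32.

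The genes whose pattern over the 6 libraries was most like that of a member were found for the 5 members with a mean of at least 5 CPM, among 11440 other genes. Likeness was the root mean square difference between log2(CPM + 1) values, each gene centred on its own mean. Bdnf was nearest to Ifit1 (0.21), an interferon-induced gene, to Hs6st3 (0.29), a heparan sulfate sulfotransferase, and to Lin7b (0.35), a scaffold of synaptic membranes, where the median gene lay at 1.28. Gdnf was nearest to Zwilch (0.19) and Ect2 (0.33), which act in mitosis and cell division, and to S100a6 (0.32), a calcium-binding protein, with a median gene at 1.53. Ntrk2 was nearest to Pou3f2 (0.10), a transcription factor of the neural lineage, Ncan (0.11), a brain proteoglycan, and Rgcc (0.11). Ntrk3 was nearest to Lrrn3 (0.09), Kcnn1 (0.11), a potassium channel, and Nrg2 (0.11), a neuregulin, and Gfra1 to Sbk1 (0.06), Dtna (0.09), a dystrophin-associated protein, and Appl2 (0.14). As the search covered so many genes in 6 libraries, close matches are a description of these libraries.

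**Figure D5:**
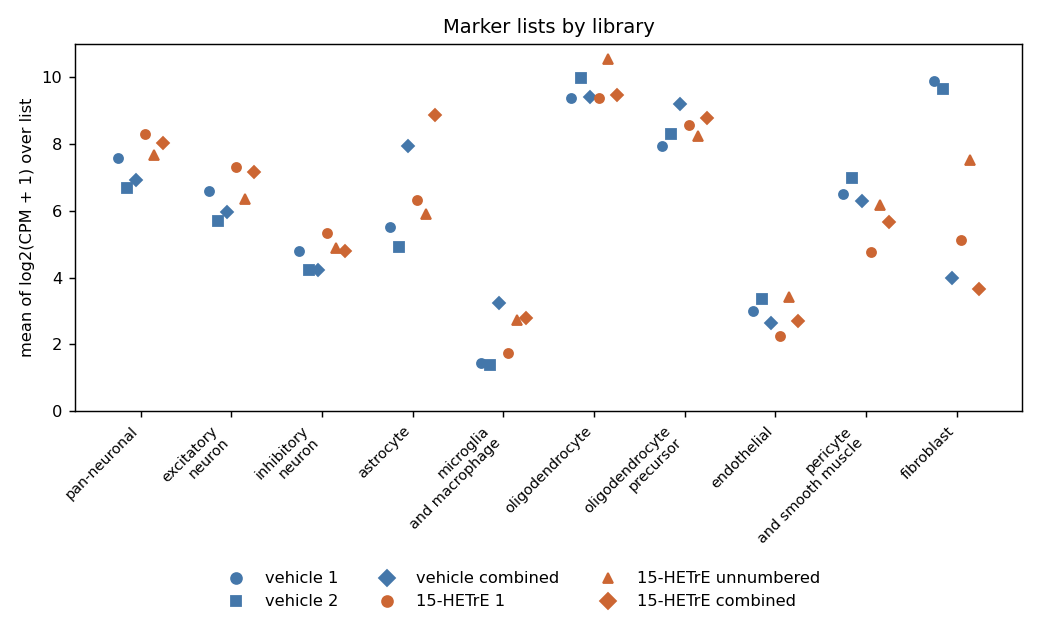
Mean of log2(CPM + 1) over the genes of each cell type marker list (vertical axis) in the 3 vehicle (blue) and 3 15-HETrE (orange) libraries. Pan-neuronal means do not overlap between the groups, astrocyte means are highest in the combined libraries, and fibroblast means are 9.89 and 9.64 in vehicle 1 and 2 and 3.99 in vehicle combined.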

How the data were processed

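RNeasy-purified RNA went into Ovation SoLo libraries, a low-input method, per the labels' protocols. Per the submitters' processing notes, reads were handled with Trimmomatic, HISAT2, featureCounts and edgeR on mm10, with no versions, settings or annotation stated. The authors' deposited file gives a signal for 24419 genes that the authors scaled as CPM with a factor per library, as its column sums show. In every column, 100% of values were whole multiples of the smallest value above 0 (tolerance 1e-04 reads), so whole reads were recovered and used as read counts. Columns were matched to groups by name; 0 other columns were present.

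Values were fitted as log2(CPM + 1) with limma 3.58.1 (R 4.3.3), with treatment alone in the model and a variance trend, over the 14523 genes averaging 1 CPM or more. Two-sided p-values were adjusted over those genes by Benjamini-Hochberg, with 0.05 as the threshold. Alternatives were other pseudocounts, filters, scalings and library weights, a term for the column prefix, leaving out libraries, and tests of the recovered counts in DESeq2 1.42.0 and edgeR 4.0.16; edgeR with no filter was added after the data were seen. The scripts were tested on simulated counts. A count of 0 reads was read as allowing up to 3 reads.

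The members and lists were chosen with earlier results of these data known. The named genes are the members, other family ligands and receptors, for each further pathway list the 2 genes of smallest p, and, for members averaging 5 CPM or more, the 3 genes most like each (predicted genes, pseudogenes, mitochondrial, Y-linked and X-inactivation genes left out). A few genes taken by this rule are left out of the text. Of 13 marker lists, those beside which a member moved are given. Positions and exon lengths are from GENCODE M21 (GRCm38), which gave 23309 symbols a single position.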

Additional observations from a re-analysis of the deposited data

How the results depend on the processing

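Bdnf stayed higher, with log2 fold changes of 1.21 to 2.51, and Gdnf lower, with -2.73 to -1.32, under all 19 alternatives. Ntrk2 (0.19 to 1.12), Ntrk3 (0.38 to 0.87) and Gfra1 (0.39 to 1.18) kept their sign under the same 19, and Ret (0.05 to 1.27) under the 18 that hold it. With 1 library left out, adjusted p of these genes ran up to 0.936 (limma). The signs of Ntrk3 and Ret nonetheless differed between the first-prefix libraries and the combined pair. limma's library weights put Bdnf (2.14), Ntrk2 (1.04), Ntrk3 (0.81), Gdnf (-2.06) and Gfra1 (0.92) past the threshold, with adjusted p of 0.00568 to 0.0153, but 16.7% of all genes passed there too, 1059 higher and 1366 lower. The weights were 0.206 for vehicle combined and 3.75 for vehicle 2. Ngfr turned to 0.47 with the prefix term and ranged from -1.07 to 0.38 with 1 library left out. Over all genes, 0 were called in either direction by limma (1380 at an unadjusted p under 0.05) and by edgeR (1232), while DESeq2 called 35 higher and 130 lower, the prefix term 1 and 7, and edgeR without a filter 5 lower. Without vehicle combined 45 genes were called lower, where the other libraries left out singly gave 0, and without both combined libraries 75; the cause was not tested. No paired analysis was possible by replicate number because the columns of the 2 groups share only 1 such number. The prefix term is a block by column name that compares libraries within a prefix and so sets the combined libraries against each other. 15-HETrE unnumbered is alone in its prefix and so adds nothing to that estimate. With this term Bdnf had 2.33 (adjusted p 0.147) and Gdnf -2.33 (adjusted p 0.173, limma). In vehicle combined, with 5405245 reads, 1 read is 0.180 CPM, and Ntf3, Ngfr and Ret had 0 reads and Bdnf 3.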
